A study of Homo sapiens with 6 samples.

Results

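This account describes 10 chemokine genes, CXCL1, CXCL2, CXCL3, CXCL5, CXCL6, CXCL8, CXCL10, CXCL16, CCL2 and CCL20. They were taken by name from the platform annotation, as the genes with probe sets that carry exactly 1 of these symbols, and 10 of 10 were measured, among 18132 genes in all, by 19 of the 49395 probe sets of the array. The genes were chosen by their log2 differences between the 2 groups of arrays, known from earlier work on these values, so those differences are given as a description, with no test. CXCL11, which is no member, was set beside CXCL10 for comparison.

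The study hybridised total RNA of 6 samples to Affymetrix arrays, 1 array per sample. Of the 6 arrays 3 are labelled FAM60A shRNA, with a genotype given as a FAM60A1 knockdown, and 3 arrays are labelled control shRNA. All 6 samples are labelled TPC-1, a line of papillary thyroid carcinoma cells, and both groups received an shRNA by lentivirus and were grown in RPMI1640 with fetal bovine serum. The series calls the 3 samples of a group independent, but the labels give neither the number of shRNA sequences used nor whether cells were cloned or pooled, and the extraction protocol names DLD1, a colorectal carcinoma line, in place of TPC-1.

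Chemokines are small secreted proteins that direct the migration of leukocytes through G protein-coupled receptors. CXCL1, CXCL2, CXCL3, CXCL5, CXCL6 and CXCL8 carry the ELR motif ahead of their paired cysteines, act on CXCR2, and in part on CXCR1, and draw neutrophils. CXCL10 and CXCL11 lack that motif, are induced by interferons and draw activated T cells through CXCR3. CCL20 acts on CCR6 of T helper 17 cells and immature dendritic cells, CCL2 acts on CCR2 of monocytes, and CXCL16 is made as a membrane protein that binds CXCR6 and is shed by proteases. In epithelial cells many of these genes are induced through NF-kB after interleukin-1, interleukin-17 or TNF.

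The targeted gene went against its label. SINHCAF, the current symbol of FAM60A, which encodes a subunit of the SIN3-HDAC corepressor complex, had log2 values of 0.63, 0.57 and 0.60 on the arrays labelled FAM60A shRNA, against -0.58, -0.66 and -0.68 on the arrays labelled control shRNA. It was 2.36-fold higher on the arrays labelled FAM60A shRNA (log2 difference 1.24, SE 0.038), and 3 of its 3 probe sets were higher there. Every direction below is therefore one between arrays as labelled, not between cells known to have less or more of the gene product.

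Every value below is a log2 value from which the median of its probe set over the 6 arrays has been subtracted, and a gene's value is the mean over its probe sets. The values therefore show how arrays differ for 1 gene and give no level that could be compared between genes. A coarse level class could still be read from the numerical steps of the deposited values. It places the log2 level of the lowest array at 2 to 4, 4 to 8, 8 to 16, or 16 or more, and the class 2 to 4 held 16 of the 17 control tags on the array that have no target. Of 23 background controls grouped by GC content 12 were in the class 2 to 4, 9 in the class 4 to 8 and 2 in the class 8 to 16, so a higher class does not by itself show that RNA was present. Of all genes, 8136 of 18132 (44.9%) passed an adjusted p of 0.05, 3595 higher on the arrays labelled FAM60A shRNA (19.8%) and 4541 lower (25.0%), so that a call alone is common in these data. A difference of at least 2-fold was less common, with 1.20% of genes higher and 0.292% lower. In bulk RNA such as this, fewer cells of a type and less RNA per cell cannot be told apart.

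Of the 10 chemokines 6, CXCL1, CXCL2, CXCL3, CXCL5, CXCL8 and CCL20, were at least 2-fold higher on the arrays labelled FAM60A shRNA, as 1.20% of all genes were, and CXCL16 was slightly lower. CXCL6, CXCL10 and CCL2 had values that overlapped between the groups. The values of the groups did not overlap for 7 of the 10 members, where 53.2% of all genes did not overlap. The members' median log2 difference was 1.24, beside -0.012 over all genes. Of the members 6 passed the threshold higher (19.8% of all genes), 1 lower (25.0% of all genes) and 3 did not pass. These counts come from the contrast in which the members were chosen, and nothing is read from them.

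**Figure D1:**
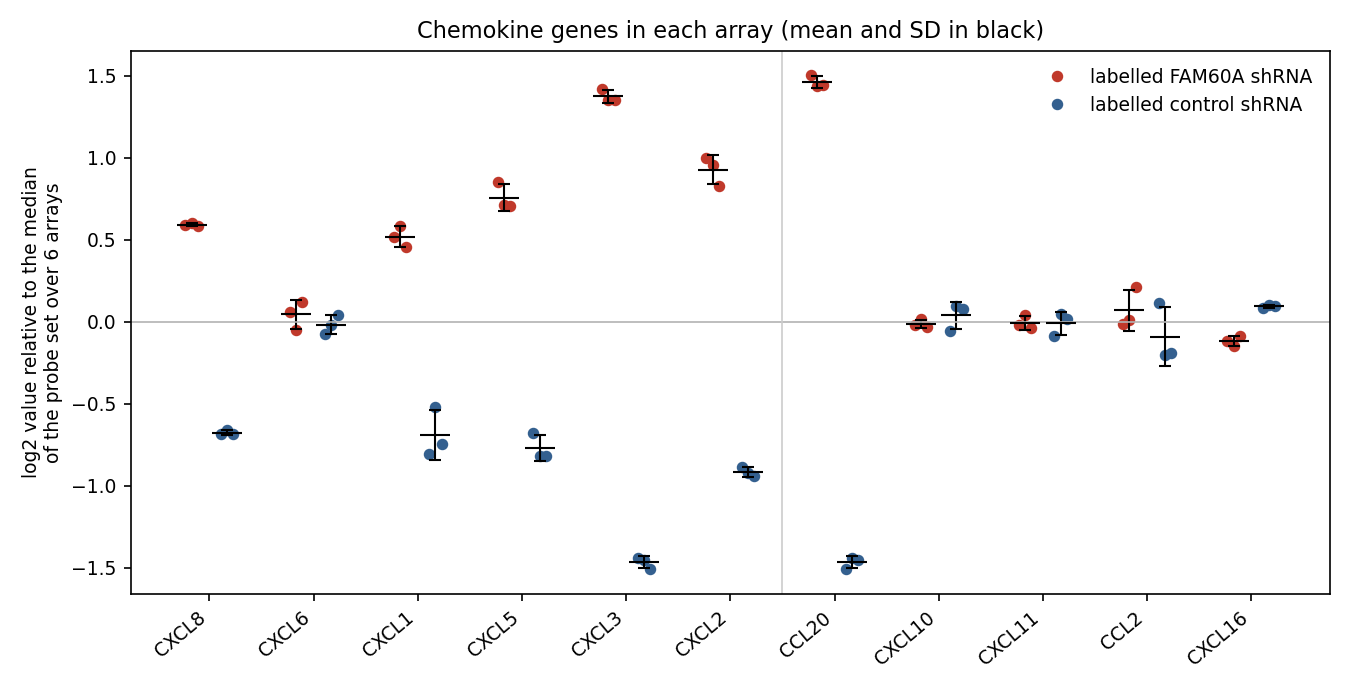
Log2 value relative to the median of the probe set (vertical axis) of the 10 members and CXCL11 on each of the 6 arrays, with arrays labelled FAM60A shRNA left of those labelled control shRNA; points are arrays, and black bars are group means with SDs. CCL20 and CXCL3 show the widest gaps (log2 differences of 2.93 and 2.84), and the points of CXCL6, CXCL10, CXCL11 and CCL2 overlap between the groups.

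Among the neutrophil-attracting genes, CXCL3 differed most. CXCL3 encodes GRO-gamma and had values of 1.42, 1.35 and 1.35 on the arrays labelled FAM60A shRNA, against -1.44, -1.45 and -1.50 on the arrays labelled control shRNA. All 3 arrays labelled FAM60A shRNA lay far above all 3 others, with a gap of 2.79 between the nearest arrays of the groups. CXCL3 averaged 1.37 ± 0.038 on the arrays labelled FAM60A shRNA and -1.46 ± 0.036 on the arrays labelled control shRNA (SD, n = 3 each), a 7.15-fold difference (log2 2.84, SE 0.036, 95% interval 2.75 to 2.92), and it stood in place 4 among all genes ranked from the highest difference.

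CXCL2, which encodes GRO-beta, had values of 0.998, 0.95 and 0.83 on the arrays labelled FAM60A shRNA, against -0.88, -0.92 and -0.94 on the arrays labelled control shRNA. The groups were again well separated, with the third array labelled FAM60A shRNA lowest of its group. CXCL2 averaged 0.93 ± 0.087 on the arrays labelled FAM60A shRNA and -0.92 ± 0.030 on the arrays labelled control shRNA, a 3.59-fold difference (log2 1.84, SE 0.049), in place 30.

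CXCL5, also known as ENA-78 and made by epithelial cells and platelets, had values of 0.85, 0.71 and 0.70 on the arrays labelled FAM60A shRNA, against -0.67, -0.82 and -0.82 on the arrays labelled control shRNA. The first array of each group was the highest of its group, and no values overlapped. CXCL5 averaged 0.76 ± 0.082 on the arrays labelled FAM60A shRNA and -0.77 ± 0.081 on the arrays labelled control shRNA, a 2.88-fold difference (log2 1.53, SE 0.058), in place 55.

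CXCL8, which encodes interleukin-8, had values of 0.59, 0.60 and 0.58 on the arrays labelled FAM60A shRNA, against -0.68, -0.66 and -0.69 on the arrays labelled control shRNA. The mean over its probe sets varied little within each group, with SDs of 0.011 and 0.015, the smallest among the members at least 2-fold higher. Single probe sets of CXCL8 spread more. Their SDs were 0.021 to 0.035 on the arrays labelled FAM60A shRNA and 0.068 to 0.15 on the arrays labelled control shRNA. The gene's difference was 2.41-fold (log2 1.27, SE 0.029, 95% interval 1.20 to 1.34), in place 101.

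CXCL1, which encodes GRO-alpha, had values of 0.51, 0.59 and 0.46 on the arrays labelled FAM60A shRNA, against -0.80, -0.52 and -0.74 on the arrays labelled control shRNA. The groups did not overlap, and the second array labelled control shRNA lay nearest to the other group. CXCL1 averaged 0.52 ± 0.065 on the arrays labelled FAM60A shRNA and -0.69 ± 0.15 on the arrays labelled control shRNA, a 2.31-fold difference (log2 1.21, SE 0.077), in place 118. The control spread was the widest of the 6 genes at least 2-fold higher.

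CXCL6, also known as GCP-2 and the gene most like CXCL5 in sequence, did not share this pattern. It had values of 0.062, -0.047 and 0.12 on the arrays labelled FAM60A shRNA, against -0.073, -0.020 and 0.043 on the arrays labelled control shRNA. The ranges of the groups overlapped. The log2 difference was 0.062 (SE 0.053, 95% interval -0.063 to 0.19). Both of its probe sets were in the lowest class, 2 to 4, which most control tags without a target also fell in, so that these arrays do not show whether CXCL6 RNA was present.

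CCL20, on chromosome 2, had the largest difference of the 10 members. It had values of 1.502, 1.44 and 1.45 on the arrays labelled FAM60A shRNA, against -1.51, -1.44 and -1.45 on the arrays labelled control shRNA. The 3 arrays of each group were close together and the gap between the groups was 2.87. CCL20 averaged 1.46 ± 0.035 on the arrays labelled FAM60A shRNA and -1.47 ± 0.036 on the arrays labelled control shRNA, a 7.61-fold difference (log2 2.93, SE 0.036), in place 3 of all genes. It rests on 1 probe set, in the class 4 to 8. Its 95% interval was 2.84 to 3.01, beside 2.75 to 2.92 for CXCL3 and 1.73 to 1.96 for CXCL2.

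CXCL16 was the member that was lower. It had values of -0.11, -0.15 and -0.085 on the arrays labelled FAM60A shRNA, against 0.087, 0.11 and 0.096 on the arrays labelled control shRNA. All 3 arrays labelled FAM60A shRNA lay below all 3 others, by a gap of 0.17. The log2 difference was -0.21 (SE 0.031, 95% interval -0.28 to -0.14), 1.16-fold lower, and 82.2% of all genes had a higher difference. Its 2 probe sets, both in the class 8 to 16, gave -0.13 and -0.29.

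CXCL10 had values of -0.016, 0.016 and -0.032 on the arrays labelled FAM60A shRNA, against -0.053, 0.096 and 0.076 on the arrays labelled control shRNA. The groups overlapped, with a log2 difference of -0.050 (SE 0.046, 95% interval -0.16 to 0.059). CXCL11 gave a difference of 0.0034 (SE 0.045, 95% interval -0.10 to 0.11, adjusted p = 0.963). CCL2 had values of -0.013, 0.013 and 0.21 on the arrays labelled FAM60A shRNA, against 0.12, -0.20 and -0.19 on the arrays labelled control shRNA. For CCL2 the first array labelled control shRNA lay within the range of the other group, and the difference was 0.16 (SE 0.099, 95% interval -0.073 to 0.40). All probe sets of CXCL10, CXCL11 and CCL2 were in the class 2 to 4, in which most control tags lay.

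The probe sets of the higher genes were alike in direction. Of the 12 probe sets of CXCL1, CXCL2, CXCL3, CXCL5 and CXCL8, 12 were higher without overlap on the arrays labelled FAM60A shRNA, and of all 19 probe sets of members 15 did not overlap, beside 50.4% of all probe sets. Of the 19, 13 passed higher, where 18.1% of all probe sets did, and 2 passed lower. Either way 40.8% of all probe sets passed. The members, and the genes of the 12 probe sets, were picked by these same differences. The counts are therefore a description, and nothing is read from them. The 2 probe sets of CXCL1 gave 1.61 and 0.80, and the lower of them had values of 0.13, 0.34 and 0.22 on the arrays labelled FAM60A shRNA, against -0.92, -0.13 and -0.66 on the arrays labelled control shRNA. That probe set alone gives the CXCL1 difference of 0.80 when probe sets whose suffix marks possible cross-matching are left out. CXCL1, CXCL2 and CXCL3 are close copies of each other, so that probes may share signal among them and the split between these 3 genes is uncertain.

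**Figure D2:**
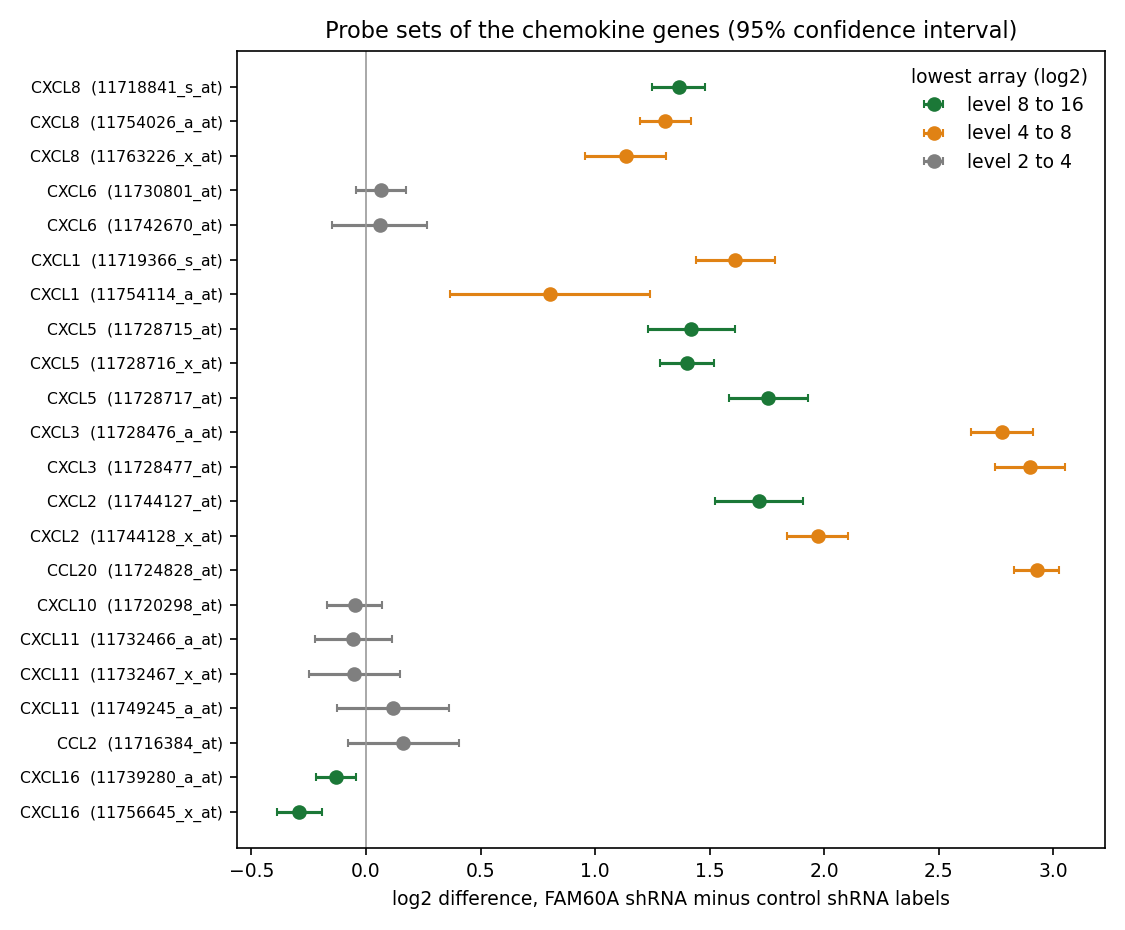
Log2 difference, FAM60A shRNA label minus control shRNA label (horizontal axis), of each probe set of the 10 members and CXCL11, with 95% intervals as bars; colours give the level class of the lowest array. The 12 probe sets of CXCL1, CXCL2, CXCL3, CXCL5 and CXCL8 lie between 0.80 and 2.90, and those in the class 2 to 4 lie near 0.

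Set against the other members, the mean of the neutrophil-attracting genes had a difference between those of CCL20 and CXCL16, with single genes from 0.062 in CXCL6 to 2.84 in CXCL3. The mean of CXCL1, CXCL2, CXCL3, CXCL5, CXCL6 and CXCL8 was 0.74, 0.69 and 0.67 on the arrays labelled FAM60A shRNA, against -0.76, -0.73 and -0.77 on the arrays labelled control shRNA, a log2 difference of 1.46 or 2.75-fold. Without CXCL6 the difference was 1.74, or 3.33-fold. The mean of CXCL10 and CXCL11 differed by -0.023, and the cluster exceeded that difference by 1.48. The cluster's difference was larger by 1.30 than that of CCL2 and by 1.67 than that of CXCL16, and against CCL20 it was -1.47. Arrays of a group spread by SDs between 0.015 and 0.19 in these contrasts, and they are given without a test.

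The neutrophil-attracting genes lie together on chromosome 4, and their promoter sequences are shown because most of them hold the same short element upstream of the start. The windows are those of RefSeq, assembly GRCh38.p14, 250 bases before and 50 after the annotated start, and 9 of the 11 genes (10 members and CXCL11) had one. CXCL16 and CCL2 had none. The search covered both strands for the NF-kB binding consensus (kappaB), AP-1 (TGANTCA), the TATA box (TATAAA) and the interferon response element, taken by name. The kappaB consensus was in 8 of these 9 windows, whereas 5.91% of all 35116 windows held it. CXCL6, CXCL10 and CXCL11, whose values overlapped between the groups, also held it. Several of the 8 windows are close copies of one another, so their matches are not independent. The 35116 windows stand for 27305 symbols, whereas the members and CXCL11 were counted once each. The shares were not tested against each other. Stretches upstream of the start are printed 5′ to 3′ with the matches to the motifs in capitals.

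CXCL1, chr4:73869283-73869392, plus strand: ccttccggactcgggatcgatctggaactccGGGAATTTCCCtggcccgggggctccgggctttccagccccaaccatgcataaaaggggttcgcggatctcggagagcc
CXCL2, chr4:74099196-74099305, minus strand: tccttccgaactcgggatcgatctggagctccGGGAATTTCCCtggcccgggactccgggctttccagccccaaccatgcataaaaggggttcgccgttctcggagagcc
CXCL3, chr4:74038690-74038799, minus strand: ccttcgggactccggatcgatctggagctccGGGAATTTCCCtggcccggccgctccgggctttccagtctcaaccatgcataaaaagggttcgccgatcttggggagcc
CXCL5, chr4:73998678-73998787, minus strand: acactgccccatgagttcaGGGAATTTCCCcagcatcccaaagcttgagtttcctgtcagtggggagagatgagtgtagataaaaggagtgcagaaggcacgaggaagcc
CXCL6, chr4:73836568-73836677, plus strand: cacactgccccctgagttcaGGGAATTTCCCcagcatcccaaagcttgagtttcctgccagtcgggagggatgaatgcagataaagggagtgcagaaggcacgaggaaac

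The same 11-base element, capital in each of these 5 windows, is matched by the kappaB consensus on both strands with an overlap of all but 1 base. It begins 79 bases upstream of the start in CXCL1 and CXCL3, 78 in CXCL2, 91 in CXCL5 and 90 in CXCL6. The 90 bases around the element were compared position by position, without gaps. CXCL1 and CXCL3 were identical in 92.2% of them, CXCL5 and CXCL6 in 93.3%, and CXCL1 and CXCL2 in 75.6%. In the printed windows CXCL2 lacks 1 base of CXCL1 shortly after the element. Bases beyond it were compared out of step, so that 75.6% understates the likeness of CXCL1 and CXCL2. Between CXCL1, CXCL2 or CXCL3 and CXCL5 or CXCL6 36 to 40 of the 90 bases were identical. CXCL5 and CXCL6, identical in 93.3% of these bases, had log2 differences of 1.53 and 0.062.

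The windows of CXCL8, CCL20 and CXCL10 are shown because their elements differ from those above.

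CXCL8, chr4:73740419-73740568, plus strand: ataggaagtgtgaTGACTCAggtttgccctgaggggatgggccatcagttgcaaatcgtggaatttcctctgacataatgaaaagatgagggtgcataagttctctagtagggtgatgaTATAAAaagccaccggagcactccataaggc
CCL20, chr2:227813732-227813841, plus strand: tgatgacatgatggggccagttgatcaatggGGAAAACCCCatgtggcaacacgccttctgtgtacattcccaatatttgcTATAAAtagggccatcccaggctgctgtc
CXCL10, chr4:76023598-76023737, minus strand: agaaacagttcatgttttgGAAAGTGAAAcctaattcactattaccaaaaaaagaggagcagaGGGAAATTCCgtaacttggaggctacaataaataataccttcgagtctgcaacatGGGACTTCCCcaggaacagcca

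CXCL8 held an AP-1 match 137 to 131 bases upstream, a TATA box at 31 to 26, and no match to the kappaB letters searched. Its window does hold tggaatttcc, which differs from the plus-strand match of CXCL1, GGGAATTTCC, in the first base only. The search therefore does not show that CXCL8 lacks a kappaB site. CCL20 held a kappaB match on the minus strand at 79 to 70 bases upstream and a TATA box at 29 to 24. CXCL10 held 2 kappaB matches, at 177 to 168 and 122 to 113 bases upstream, and an interferon response element at 221 to 212. CXCL11 had a kappaB match at 76 to 67, an AP-1 match at 87 to 81 and a TATA box at 42 to 37. AP-1, TATA box and interferon response element were in 7.71%, 11.5% and 3.57% of all windows. A match describes the letters of a window and was not tested as a binding site.

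**Figure D3:**
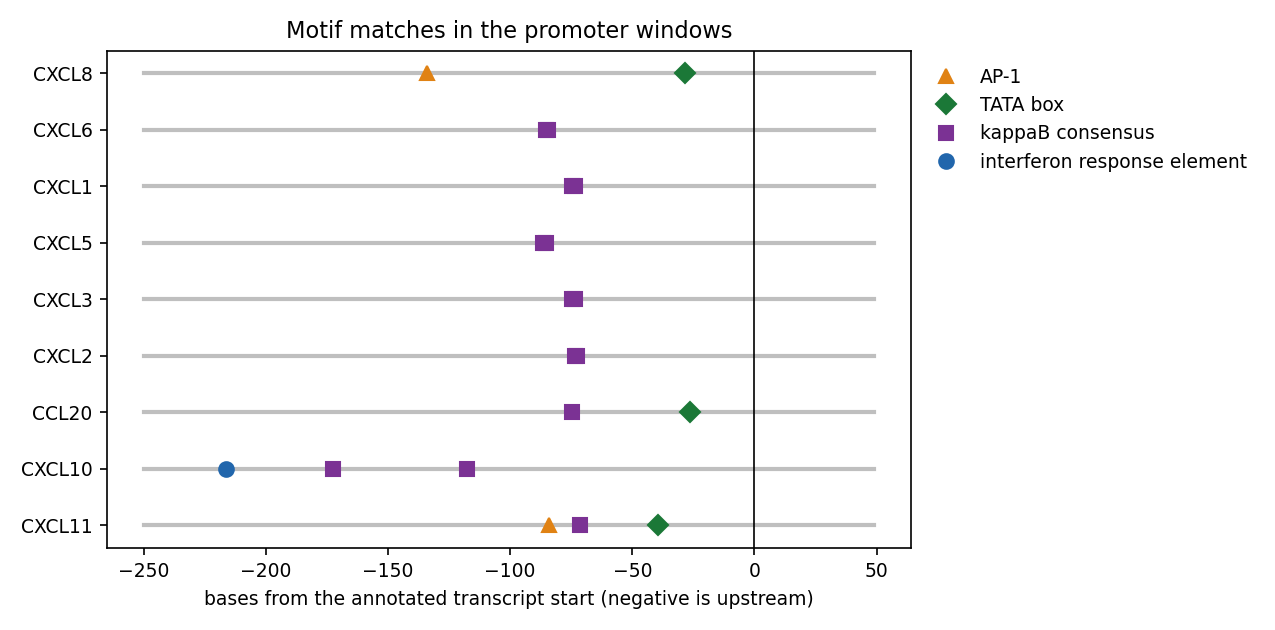
Motif matches in the promoter windows of 8 members and CXCL11, by distance from the annotated start in bases (horizontal axis, negative upstream); symbols give the motif. The kappaB match sits between 91 and 67 bases upstream in CXCL1, CXCL2, CXCL3, CXCL5, CXCL6, CXCL11 and CCL20, and further up in CXCL10.

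Along chromosome 4, in the order of the RefSeq table, 9 protein-coding genes run from CXCL8 to CXCL2. The platelet chemokines of the cluster were not all alike. PF4, platelet factor 4, rose by 0.91 on the log2 scale (SE 0.075, 1.88-fold, adjusted p = 5.70e-05), and its probe sets gave 0.95 and 0.87. PF4V1, a close copy of PF4, rose by 0.19 (SE 0.046, adjusted p = 0.0133), and PPBP, which encodes the precursor of NAP-2, gave -0.15 (SE 0.063, adjusted p = 0.0971) and was in the class 2 to 4.

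Outside the cluster, RASSF6 on its one side gave -0.034 (adjusted p = 0.669). On the other side MTHFD2L, a mitochondrial folate enzyme, fell by 0.37 (SE 0.041, adjusted p = 2.56e-04). EREG, which encodes the EGF receptor ligand epiregulin, rose by 1.08 (SE 0.040, 2.11-fold, adjusted p = 2.14e-06). Of the 15 genes between CXCL2 and CXCL9, 13 were measured, of which 3 rose, 3 fell and 7 did not pass. Over all genes 19.8% rose and 25.0% fell, so nothing is read from these counts. Besides MTHFD2L and EREG, BTC (betacellulin) rose by 0.23 and G3BP2, a stress granule protein, by 0.48. RCHY1, a ubiquitin ligase, fell by 0.82. THAP6 fell by 0.15, a call lost in 9 of 14 alternative settings. CXCL9, beside CXCL10 and CXCL11, gave -0.043 (adjusted p = 0.682). High and low differences were mixed along the cluster, where CXCL6, PF4V1 and PPBP lay among genes with larger differences. All probe sets of CXCL6 and PPBP were in the class 2 to 4.

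**Figure D4:**
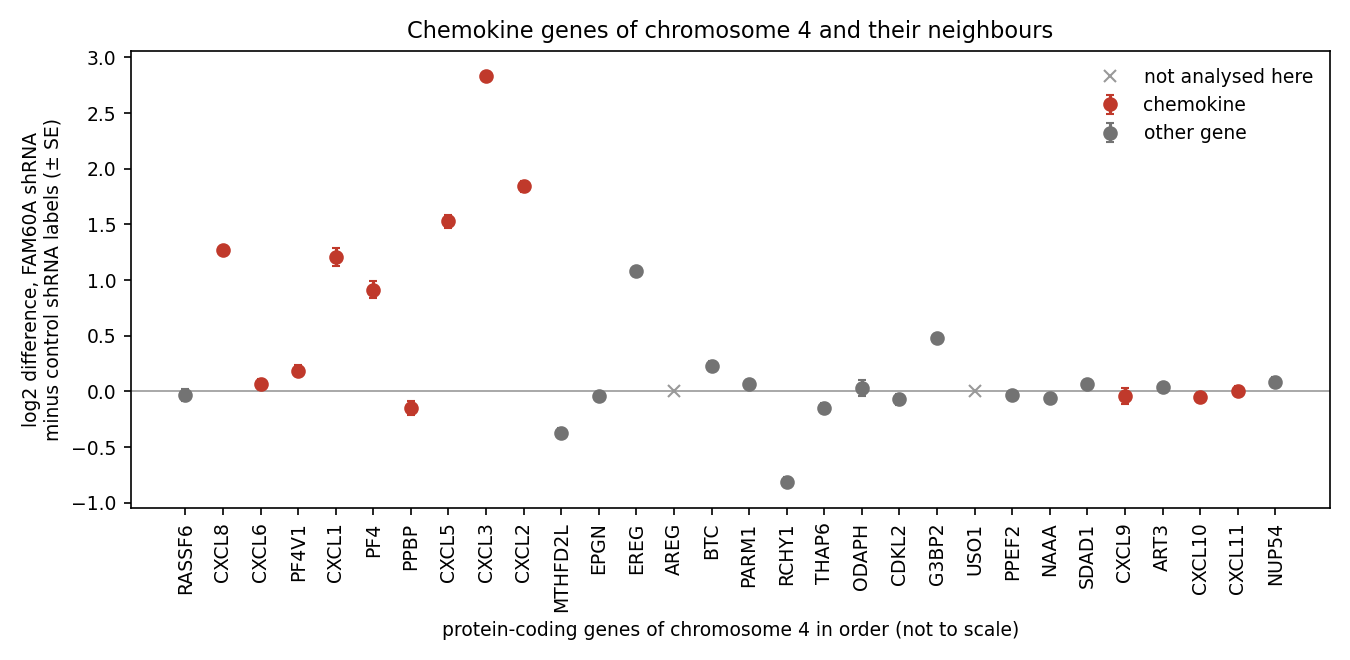
Log2 difference, FAM60A shRNA label minus control shRNA label (vertical axis), of genes in their order along chromosome 4 (horizontal axis) from RASSF6 to NUP54, with standard errors as bars; crosses mark genes not analysed here. CXCL8, CXCL1, CXCL5, CXCL3 and CXCL2 stand between 1.21 and 2.84, and CXCL9, CXCL10 and CXCL11 near 0.

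The counts in the lists from here on stand beside 19.8% of all genes that rose and 25.0% that fell. Of 34 other chemokines listed, 30 were measured, 5 rose, 1 fell and 24 did not pass, with a median log2 difference of 0.0049. All probe sets of 10 of them were in the lowest class. CCL26, an eosinophil attractant acting on CCR3, rose by 1.64 (SE 0.053, 3.11-fold, adjusted p = 1.30e-06). Besides PF4 and PF4V1, CX3CL1, the membrane-bound fractalkine, rose by 0.32 (adjusted p = 2.95e-04), and CCL11, chosen after its values were seen, by 0.15 (adjusted p = 0.0430), a call that was lost in 7 of 14 alternative settings. CCL28, a mucosal chemokine, fell by 0.48 (adjusted p = 5.53e-04). CXCL12, which attracts cells bearing CXCR4, gave -0.012 (adjusted p = 0.851).

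Of 22 chemokine receptors 20 were measured, 0 rose in limma's test (0 at an unadjusted p under 0.05), 1 fell and 19 did not pass, with a median of 0.016, and 11 had all probe sets in the lowest class. CXCR2, the main receptor of the neutrophil-attracting group, gave 0.023, CXCR1 gave 0.040, CXCR4 gave 0.049, CCR6, the receptor of CCL20, gave 0.026 and ACKR3, a scavenging receptor, gave 0.0091. CCR7 fell by 0.26 (adjusted p = 0.0134), in the class 2 to 4.

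NF-kB is a family of dimeric factors held in the cytoplasm by inhibitors until a kinase complex marks these for degradation. Of 19 subunits, inhibitors and kinase components 8 rose, 5 fell (3 under each of 3 other scalings) and 6 did not pass, with a median of 0.067. NFKB1 and RELA, the subunits of the classical dimer, gave 0.039 (adjusted p = 0.395) and 0.0040 (adjusted p = 0.947). NFKBIA, the inhibitor IkB-alpha, rose by 0.75, TNFAIP3, the deubiquitinase A20, by 0.91 (adjusted p = 2.41e-06) and TNIP1, which binds A20, by 1.02 (2.03-fold, adjusted p = 1.04e-06). CYLD, another deubiquitinase that restrains the pathway, fell by 0.65 (adjusted p = 7.60e-06). Of the subunits, NFKB2 fell by 0.17 and RELB rose by 0.13, and of the kinase complex CHUK fell by 0.52 and IKBKG by 0.11.

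Of 35 upstream cytokines, receptors and adaptors 33 were measured, 12 rose, 4 fell and 17 did not pass, with a median of 0.093. The cytokines best known to induce these chemokines did not pass, and the only probe sets of TNF and IL1A were in the class 2 to 4, as were all probe sets of 7 of the 33 genes. TNF gave 0.020 (adjusted p = 0.660), IL1A 0.038 (adjusted p = 0.829) and IL1B -0.15 (adjusted p = 0.0681). IL1B passed lower without the control array of replicate 2, at -0.20 (adjusted p = 0.0250). IL33, an alarmin of the IL-1 family, rose by 1.45 (adjusted p = 8.10e-06) and IL1RN, the interleukin-1 receptor antagonist, by 0.98 (adjusted p = 2.56e-06), although by 0.44 without cross-matching probe sets. The adaptors IRAK2 and MYD88 rose by 0.50 and 0.44. IL17C, an epithelial cytokine chosen after its values were seen, rose by 1.17 (SE 0.12, adjusted p = 1.49e-04).

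Of 25 other known NF-kB targets 22 were measured, 10 rose, 3 fell (1 where the probe sets in the lowest class, or those marked for cross-matching, were left out) and 9 did not pass, with a median of 0.12. LCN2, the iron-scavenging lipocalin-2, rose by 1.60 (3.03-fold, adjusted p = 3.69e-07), TRAF1 by 0.73, SAA1, an acute phase protein, by 0.69 and IL32 by 0.49. IL6 gave 0.11 (adjusted p = 0.118). It passed in 3 other settings, at 0.16 and 0.26. Of 14 AP-1, C/EBP and related factors 9 rose, 4 fell and 1 did not pass, with a median of 0.34. Of the 9, CEBPA, CEBPB, JUNB and JUND had only probe sets marked for possible cross-matching, and the other 5 rose without such probe sets too. CEBPA rose by 1.54 (2.91-fold), FOSL2 by 0.70 and CEBPD by 0.69, and EGR1 fell by 0.60.

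In the interferon axis, 21 of 24 listed genes were measured, 5 rose, 7 fell and 9 did not pass, with a median of -0.072. Over all genes 19.8% rose and 25.0% fell, so these counts are not read as a result about the axis. OAS1, an antiviral synthetase, rose by 0.85 and ISG15 by 0.39, whereas IFIT1 fell by 0.69 and the receptor IFNAR1 by 0.55. IRF1, which acts on the CXCL10 promoter, rose by 0.25 (adjusted p = 7.93e-04).

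Among 13 regulators of chemokine mRNA decay and of shedding, 5 rose, 1 fell and 7 did not pass, with a median of 0.075. ZFP36, tristetraprolin, which binds AU-rich elements, gave -0.025 (adjusted p = 0.610), while its relative ZFP36L2 rose by 0.78 and ZC3H12A, the endoribonuclease Regnase-1, by 0.64. KHSRP rose by 0.52 and HNRNPD by 1.11, with probe sets of HNRNPD between -0.21 and 1.61. The sheddases of CXCL16 and CX3CL1 gave 0.059 for ADAM10 (adjusted p = 0.351) and 0.028 for ADAM17 (adjusted p = 0.614), whose probe sets passed in both directions.

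**Figure D5:**
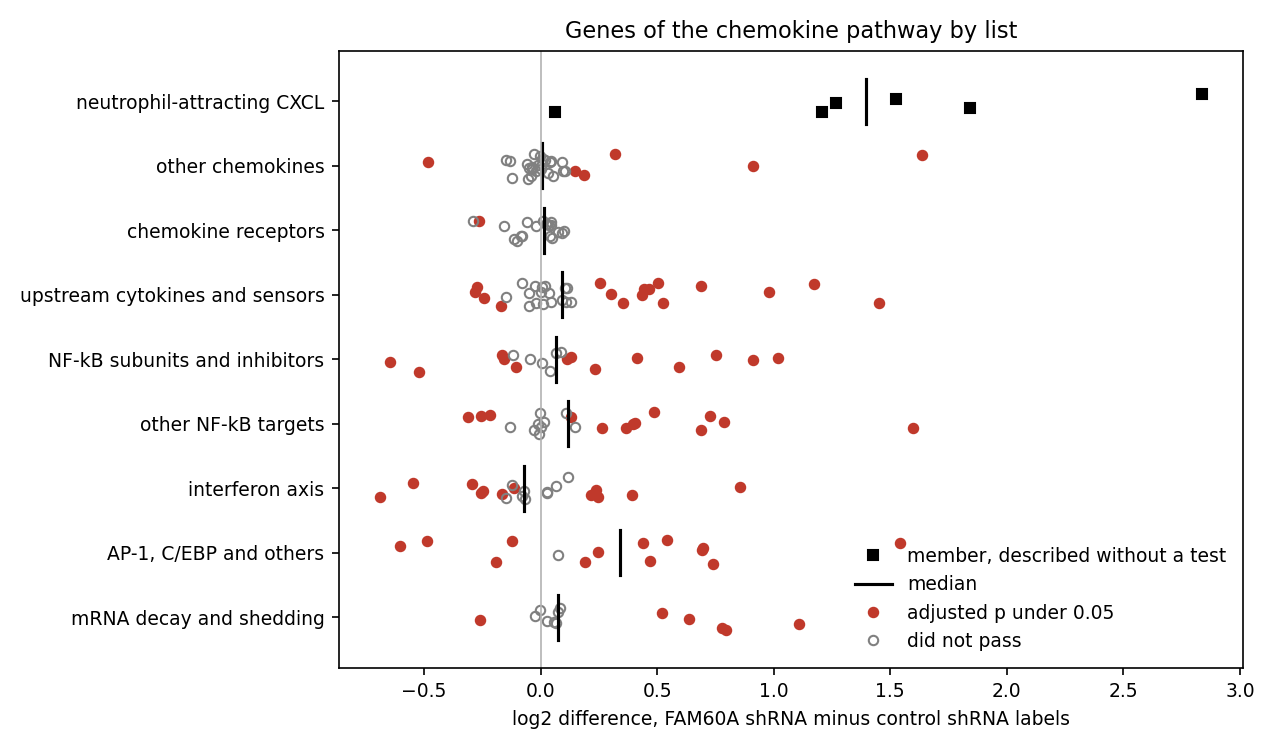
Log2 difference, FAM60A shRNA label minus control shRNA label (horizontal axis), of each measured gene of 9 lists (vertical axis); squares are members, filled circles passed the adjusted p of 0.05 in limma, open circles did not and the black line is the list's median. The median of the neutrophil-attracting genes, which were chosen by these differences, is 1.40. The other lists have medians between -0.072 and 0.34.

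The genes whose pattern over the 6 arrays was nearest to the cluster mean, by root mean square difference, were KLK6 (0.0333), ABHD6 (0.0360), GDPD3 (0.0385), P3H4 (0.0414) and SLPI (0.0428), with log2 differences between 1.41 and 1.48. ABHD6 gave 2.28 by its most variable probe set. Those nearest to CCL20 were DDIT4 (0.0887), SEL1L3 (0.135), BMP2 (0.167), CHI3L1 (0.247) and S100A16 (0.2497), with differences between 2.43 and 3.01. This is a likeness of 6 values and says nothing of shared function.

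Markers of cells that make or receive chemokines were looked at beside these results. Of 18 measured leukocyte markers 2 rose, CD68 by 0.26 and CD79A by 0.14, and 16 did not pass. The call of CD79A was lost in 6 of 14 alternative settings. Their mean value was -0.014 to 0.031 on the arrays labelled FAM60A shRNA and -0.043 to 0.018 on the arrays labelled control shRNA, and 7 had all probe sets in the lowest class. Of 9 endothelial markers 0 rose and 0 fell in limma's test (0 at an unadjusted p under 0.05). Of 12 measured thyroid markers 1, HHEX, fell by 0.97 and 11 did not pass. Their mean was -0.048 to -0.044 on the arrays labelled FAM60A shRNA and 0.035 to 0.055 on the arrays labelled control shRNA. For PAX8, TG, TSHR, NKX2-1 and FOXE1, which define thyroid follicular cells, no probe set reached the class 8 to 16, and all 3 of TSHR were in the class 2 to 4. Of the 12 thyroid markers 1, DIO1, had a probe set in the class 8 to 16, and 3 had all probe sets in the class 2 to 4. Of 13 measured intestinal markers 9 rose and 4 did not pass. The mean over all 13 was 0.32 to 0.33 on the arrays labelled FAM60A shRNA, against -0.38 to -0.32 on the arrays labelled control shRNA. ASCL2 rose by 2.20, LGR5 by 1.995, KRT20 by 1.20 and CDX2 by 0.999, and CDX2, CDH17, KRT20 and ASCL2 had probe sets at 8 or more. Another 4 of the 13, VIL1, LGALS4, FABP1 and MUC2, had all probe sets in the class 2 to 4. The 9 intestinal markers that rose were higher on the same arrays as the chemokines at least 2-fold higher. The part of intestinal markers in the chemokine differences was not tested. The 3' to 5' log2 ratio, a measure of RNA integrity, differed between the groups by -0.029 for beta-actin and -0.012 for GAPDH.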

How the data were processed

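Array hybridisations of total RNA from 6 samples were grouped by sample title into 3 arrays labelled FAM60A shRNA and 3 labelled control shRNA. The deposited values were log2 expression values, for which RMA is named in the submitters' processing notes. Their logarithm was taken to base 2, which no source used here states. Each probe set had been centred on its median over the arrays, within 5e-07 of 0. The number of arrays limits the precision.

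Of 49395 probe sets, 44988 were not controls and had 1 symbol, and their mean per symbol stood for a gene. Groups were compared with limma 3.58.1 (lmFit, eBayes) in R 4.3.3, with Benjamini-Hochberg adjustment over 18132 genes or 49293 probe sets and a threshold of 0.05; this was tested on simulated data. Level classes came from the binary spacing of the single-precision values, a method used after the data were seen. It errs upward, and 9.76% of probe sets at 8 or more came out at 16 or more.

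The members and lists were chosen with earlier results of these data known. Named genes were the members, CXCL11, SINHCAF, up to 4 called genes per list with the smallest p, preset best-known genes, the chromosome 4 neighbours, and the 5 genes nearest to the cluster mean and to CCL20; others are named as chosen later. ADAM10, ADAM17, ZFP36, RASSF6, MTHFD2L, BTC, THAP6, CXCL9, NFKB2, RELB, CHUK, IKBKG, CEBPB, JUNB, JUND and the thyroid and intestinal markers beyond that rule were also chosen after their values were seen. Genes without a probe set of 1 symbol were not analysed here. Alternatives were other scalings, other choices of probe sets, a replicate block, a robust prior and leaving out each array.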

Additional observations from a re-analysis of the deposited data

Results flagged for a closer look

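One signal lay in data outside the comparisons. A probe set that carries the symbols of both CXCL5 and GLYR1, and therefore stood for no gene, had values of 0.85, 0.77 and 0.78 on the arrays labelled FAM60A shRNA, against -0.77, -0.91 and -0.82 on the arrays labelled control shRNA. Its log2 difference was 1.64, and its groups did not overlap. The probe sets of CXCL5 alone gave 1.40 to 1.76.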

How the results depend on the processing

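No result reversed its sign as a called value in the alternatives run. When the arrays were quantile normalized again, the log2 difference of the 6 cluster genes was 1.27, of the 5 without CXCL6 1.51 and of CCL20 2.41, and the cluster's excess was 1.28 over CXCL10 and CXCL11, 1.09 over CCL2, 1.46 over CXCL16 and -1.14 over CCL20. With the probe set of largest variance these were 1.61 and 1.92 for the cluster, -0.29 for CXCL16, and 1.58 over CXCL10 and CXCL11, 1.90 over CXCL16 and -1.32 over CCL20. Without x_at and s_at probe sets they were 1.38 and 1.65, -0.13 for CXCL16, 1.39 over CXCL10 and CXCL11, 1.52 over CXCL16 and -1.54 over CCL20. The causes were not tested, beyond the choice of probe sets itself. Leaving out 1 array at a time gave 7365 to 7700 genes past the threshold and 1.44 to 1.47 for the cluster. The deviations of same-numbered arrays from their group means correlated at 0.161, 0.0593 and 0.0780. Arrays with different numbers gave -0.105 to 0.0403, below all same-numbered values. Pairing by number is therefore not excluded, although the main fit did not pair the arrays. With the replicate block 8170 genes passed, against 8136 without it, and the members' differences stay the same by construction. The most variable probe set alone gave 0.53 for IRF1, 0.53 for CX3CL1, -1.10 for CYLD, 0.97 for IRAK2, 1.35 for OAS1, -0.86 for IFNAR1, -0.66 for MTHFD2L and 1.52 for IL1RN, and CEBPD gave 0.44 without x_at and s_at probe sets. Leaving out the lowest level class leaves CXCL6, CXCL10, CXCL11 and CCL2 with no probe set. A level near that of the control tags limits what a lower value could show.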

Other observations

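A probe set that carries the symbols of both CXCL1 and CXCL2 had values of -0.018, 0.37 and 0.068 on the arrays labelled FAM60A shRNA, against -0.38, 0.018 and -0.59 on the arrays labelled control shRNA. Its groups overlapped, with a log2 difference of 0.46 (SE 0.17), below those of the probe sets of either gene alone.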
